A study of Mus musculus with 4 samples.

Results

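Guanylate-binding proteins (GBPs) and immunity-related GTPases (IRGs) are large families of interferon-inducible GTPases that defend the cell from within. Here 10 mouse genes of these families were examined, listed by symbol: Gbp2, Gbp3, Gbp4, Gbp5, Gbp6, Gbp7, Irgm1, Irgm2, Igtp and Iigp1, among 19938 genes named on the arrays. Of the 10 members, 6 had a probe set annotated to that gene alone, 4 GBPs (Gbp3, Gbp4, Gbp5, Gbp7) and 2 IRGs (Irgm1, Iigp1). The other 4 (Gbp2, Gbp6, Irgm2, Igtp) lay on 3 probe sets shared with close copies, whose signal cannot be assigned to 1 gene and is given apart.

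The cells were dendritic cells grown from mouse bone marrow for 10 days with 20 ng/mL of the growth factor GM-CSF and then electroporated with siRNA, a short RNA that triggers degradation of a matching transcript. The 4 conditions had 1 array each: siRNA against NR4A3 with LPS, control siRNA with LPS, siRNA against NR4A3 without stimulation, and control siRNA without stimulation. LPS, the bacterial cell wall component sensed by TLR4, was given at 100 ng/mL for 24 hours, starting 24 hours after the siRNA. NR4A3 is an orphan nuclear receptor. The labels name BALB/c mice in one place and C57BL/6 in another for all 4 samples, and do not say how many mice or cultures were used. Values are log2 expression values from the authors, so a difference of 1 is a doubling of signal. With a single array per condition, a difference between conditions cannot be checked against replicates and carries no p-value, and the small number of arrays sets the precision. Each silencing comparison shares 1 array with each LPS comparison.

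GBPs and IRGs are transcribed after interferon signalling, and interferon-gamma is their classical inducer. LPS reaches them through TLR4 and autocrine type I interferon. STAT and IRF factors carry the signal to elements in their promoters known as GAS and ISRE. IRG proteins of the effector kind load onto the vacuoles of intracellular parasites and break them, while the IRGM proteins regulate where they load and keep them off the cell's own membranes. GBPs coat vacuoles and cytosolic bacteria and promote inflammasome responses to bacterial LPS.

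The upstream regions of these genes share the letters of interferon-response elements. RefSeq promoter windows (GRCm38.p6, the 250 bases before the annotated start) were matched by symbol for 7 of the 10 members, Gbp2, Gbp3, Gbp5, Gbp7, Irgm1, Igtp and Irgm2. Gbp4, Gbp6 and Iigp1 were not matched. Each of the 7 had the ISRE core, which was searched as GAAA, any 2 bases and GAAA again on either strand, in 7 of their 8 windows (Gbp3 has 2), against 2.98% of all 32851 windows. The GAS core TTCNNNGAA, which reads the same on both strands, was in 4 of the 7 (Gbp5, Gbp7, Igtp, Irgm2), against 7.02% of windows. Its matches did not overlap those of the ISRE core in these genes. The monomer element of NR4A receptors, NBRE (AAAGGTCA, both strands), was in 0 of the 8 windows and in 1.34% of all. Such matches describe letters in this window and not binding. Of the 8 windows, 5 are printed 5′ to 3′ on the gene's strand, with ISRE and GAS cores in capitals. Gbp5 and Gbp7 were chosen as neighbours whose silencing differences in unstimulated cells were unlike. Irgm1 was chosen because 2 ISRE cores overlap in it, as they also do in a Gbp3 window that is not printed. Igtp and Irgm2 were chosen because they share a probe set.
Gbp5 (chr3:142496684-142496933, + strand): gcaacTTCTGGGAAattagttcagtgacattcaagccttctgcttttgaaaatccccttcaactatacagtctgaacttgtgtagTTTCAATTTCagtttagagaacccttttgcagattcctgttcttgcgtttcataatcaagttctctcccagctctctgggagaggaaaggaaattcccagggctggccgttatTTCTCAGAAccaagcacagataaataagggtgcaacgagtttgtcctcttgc
Gbp7 (chr3:142530086-142530335, + strand): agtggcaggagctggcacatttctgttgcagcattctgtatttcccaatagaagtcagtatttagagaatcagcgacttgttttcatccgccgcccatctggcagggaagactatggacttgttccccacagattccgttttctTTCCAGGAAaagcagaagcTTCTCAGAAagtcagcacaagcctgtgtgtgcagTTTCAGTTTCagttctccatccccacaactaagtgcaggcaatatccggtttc
Irgm1 (chr11:48871421-48871670, - strand): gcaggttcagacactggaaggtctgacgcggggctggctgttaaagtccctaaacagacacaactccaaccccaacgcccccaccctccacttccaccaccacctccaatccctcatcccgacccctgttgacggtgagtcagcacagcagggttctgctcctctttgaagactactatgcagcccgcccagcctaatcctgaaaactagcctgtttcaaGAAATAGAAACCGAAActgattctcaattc
Igtp (chr11:58199306-58199555, + strand): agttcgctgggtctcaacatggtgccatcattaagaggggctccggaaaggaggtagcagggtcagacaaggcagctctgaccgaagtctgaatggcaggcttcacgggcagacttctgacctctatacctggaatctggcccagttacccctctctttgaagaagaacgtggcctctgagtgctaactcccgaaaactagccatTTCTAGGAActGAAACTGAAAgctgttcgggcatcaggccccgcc
Irgm2 (chr11:58214727-58214976, + strand): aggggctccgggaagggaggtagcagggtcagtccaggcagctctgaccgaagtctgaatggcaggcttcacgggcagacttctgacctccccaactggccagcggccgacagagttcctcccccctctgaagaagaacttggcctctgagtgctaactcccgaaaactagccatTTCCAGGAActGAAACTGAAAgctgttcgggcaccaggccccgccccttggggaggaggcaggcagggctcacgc
In the Gbp5 window the ISRE core lies 165 to 156 bases before the start, between GAS cores at 245 to 237 and at 52 to 44 bases. The Gbp7 window has its ISRE core 53 to 44 bases before the start. Igtp and Irgm2 windows had 68.1% identical columns in a global alignment, the highest of all pairs of the 8 member windows, the other pairs lying between 39.9% and 51.1%. Both hold a GAS core followed after 2 bases by the same ISRE core.

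The arrays fitted their labels. Nr4a3 stood at 7.15 with NR4A3 siRNA against 11.21 with control siRNA in unstimulated cells, and at 9.39 against 11.77 with LPS. Of 10 dendritic cell markers, 9 passed the median of all named genes, 6.66, which served as the limit for dim genes. Itgax, H2-Ab1 and Cd74 lay between 12.27 and 13.47 on all arrays, while Flt3 stayed under the limit. All 9 macrophage markers passed that limit on some array, with Adgre1 between 11.08 and 13.07. Among cells that make interferon-gamma, 0 of 6 natural killer cell markers passed it and 1 of 5 T cell markers did, Cd2. In such bulk RNA, fewer cells of a type and less RNA per cell cannot be told apart.

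The comparison of LPS-treated with unstimulated cells addresses how strongly a bacterial signal raises these GTPases. All 6 measured members were higher with LPS under either siRNA, by 3.90-fold to 26.4-fold with NR4A3 siRNA and by 5.0-fold to 22.5-fold with control siRNA. Their median log2 differences were 3.94 with NR4A3 siRNA and 3.71 with control siRNA, where the medians over all genes past the limit were 0.02 and -0.02. At 1.5-fold or more, 6 of 6 members were higher in each comparison, against 10.3% of genes with NR4A3 siRNA and 10.2% with control siRNA. None of the 6 was at least 1.5-fold lower, against 6.88% and 9.44% of genes. Iigp1 passed the limit through its LPS-treated arrays alone and so had to be higher, and these counts and medians describe the 6 without adding support. Markers of the cells moved with LPS too. In the additive fit described below (adjusted p under 0.05), 3 of 4 tested monocyte markers were called lower and 1 higher. Of 9 macrophage markers 5 were called lower in that fit, Mrc1 by 3.92 (log2), and 3 higher. These counts stand against 14.4% of all genes called lower and 15.6% called higher. The summed monocyte marker level (log2) was 10.45 with LPS against 11.97 without it under NR4A3 siRNA, and 10.46 against 12.02 under control siRNA. Among these markers, Plac8 and Marco passed the limit through their LPS-treated arrays alone and F13a1 through its unstimulated arrays alone. The direction of those genes was therefore fixed. The part of the markers in the LPS differences was not tested.

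**Figure D1:**
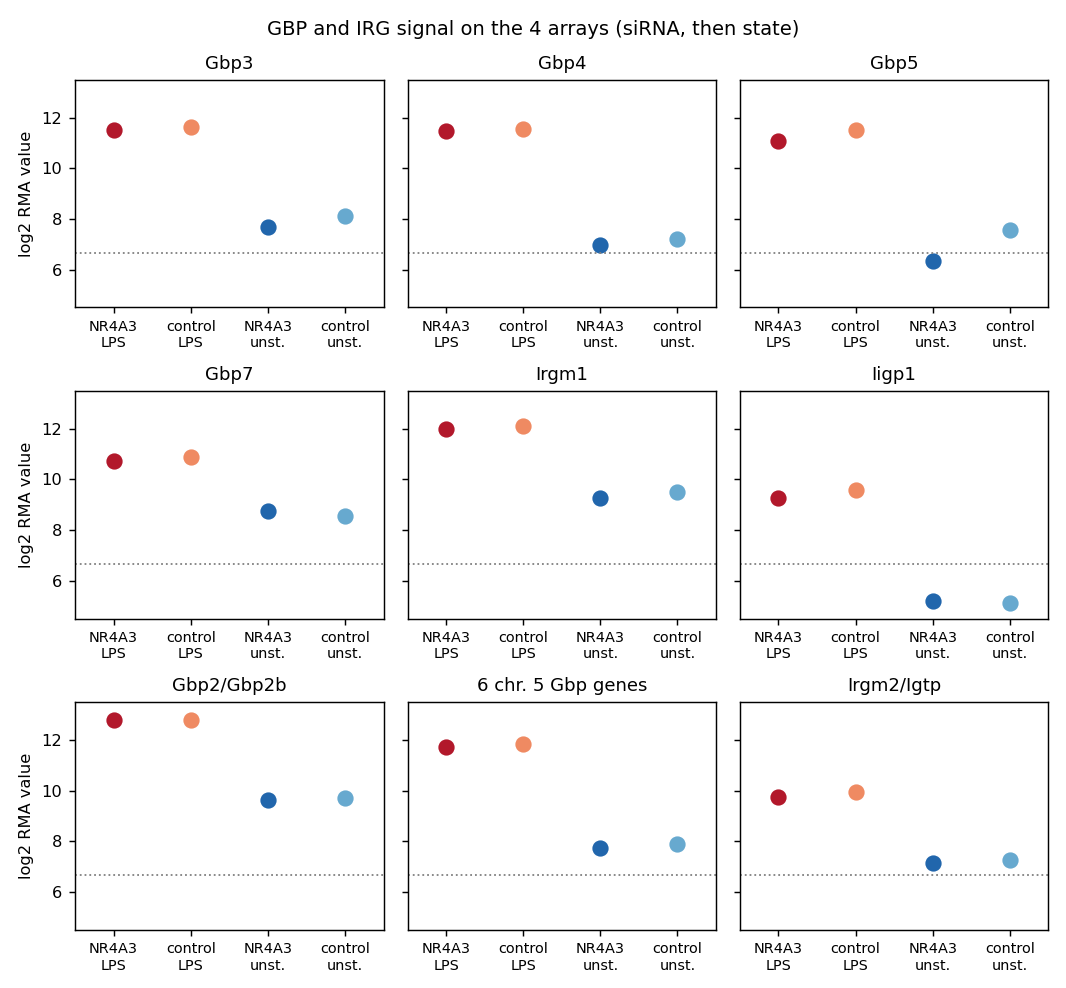
Log2 RMA value (vertical axis) of the 6 members with a probe set of their own and of the 3 shared probe sets on each of the 4 arrays (horizontal axis: siRNA against NR4A3 or control siRNA, with LPS or unstimulated); each point is 1 array and the dotted line is the dim-gene limit of 6.66. In every panel both LPS-treated arrays lie above both unstimulated arrays, and Gbp5 has the widest gap between siRNAs without LPS, at 6.35 with NR4A3 siRNA and 7.58 with control siRNA.

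Among the GBPs, Gbp4, which in mice binds and restrains IRF7, stood at 11.46 with NR4A3 siRNA and 11.56 with control siRNA under LPS. Its unstimulated levels were 6.95 with NR4A3 siRNA and 7.19 with control siRNA. These are 22.8-fold and 20.7-fold differences, and the LPS-treated and unstimulated arrays were well apart. Gbp5, which in mice promotes activation of the NLRP3 inflammasome, stood at 11.07 with NR4A3 siRNA and 11.50 with control siRNA under LPS. Without LPS it stood at 6.35 with NR4A3 siRNA, below the dim-gene limit, and at 7.58 with control siRNA. The LPS differences of Gbp5 were therefore 26.4-fold, an approximate value, and 15.1-fold. Gbp3 reached 11.53 with NR4A3 siRNA and 11.62 with control siRNA under LPS, against 7.69 and 8.13 in unstimulated cells with NR4A3 and control siRNA. Its folds were 14.3 and 11.3 in the same order of siRNAs. Gbp7 had the smallest LPS difference of the 6 in these arrays, 3.90-fold with NR4A3 siRNA and 5.0-fold with control siRNA. It stood at 10.72 with NR4A3 siRNA and 10.88 with control siRNA under LPS, against 8.76 with NR4A3 siRNA and 8.56 with control siRNA unstimulated.

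Of the IRGs, Irgm1, a regulatory member needed for resistance to mycobacteria in mice, stood at 12.0 with NR4A3 siRNA and 12.10 with control siRNA under LPS. Unstimulated cells had 9.28 with NR4A3 siRNA and 9.52 with control siRNA, so that LPS levels were 6.58-fold and 5.99-fold higher. Iigp1 (Irga6), an effector that loads onto Toxoplasma vacuoles, reached 9.26 with NR4A3 siRNA and 9.59 with control siRNA under LPS. It was dim without LPS, at 5.21 with NR4A3 siRNA and 5.10 with control siRNA, both below 6.66. Its 16.5-fold and 22.5-fold differences are therefore approximate, and the signal passed the limit on the LPS-treated arrays alone.

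The shared probe sets had the same arrangement. The probe set of Gbp2 and Gbp2b, genes of the vacuole-targeting GBPs, stood at 12.77 with NR4A3 siRNA and 12.80 with control siRNA under LPS, against 9.64 and 9.72 in unstimulated cells with NR4A3 and control siRNA. The one that holds Gbp6 with Gbp4, Gbp8, Gbp9, Gbp10 and Gbp11 stood at 11.72 with NR4A3 siRNA and 11.84 with control siRNA under LPS, against 7.72 and 7.87 unstimulated in the same order. That of Irgm2 and Igtp, regulatory IRGs, stood at 9.75 with NR4A3 siRNA and 9.95 with control siRNA under LPS, against 7.15 and 7.26 unstimulated. With LPS these 3 signals were 8.77-fold, 15.9-fold and 6.05-fold higher under NR4A3 siRNA, and 8.45-fold, 15.7-fold and 6.46-fold higher under control siRNA. The genes of 1 probe set cannot be told apart in them.

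The average effect of LPS over both siRNAs can be tested over the 4 arrays with an additive fit (limma, 1 residual degree of freedom, Benjamini-Hochberg over 10592 genes). Its residual is the difference of LPS effects between the siRNAs, and since separate cultures are not recorded for the arrays, the p-values rest on a spread between these arrays that may be technical. The 5 members that passed the limit on some unstimulated array all rose, against 15.6% of genes called higher and 14.4% called lower. The estimates were 4.44 ± 0.10 for Gbp4 (log2 ± SE, limma adjusted p = 2.16e-05), 4.32 ± 0.19 for Gbp5 (9.18e-05) and 3.67 ± 0.12 for Gbp3 (4.82e-05). Irgm1 had 2.65 ± 0.10 (limma adjusted p = 6.9e-05) and Gbp7 2.14 ± 0.12 (0.000197). Iigp1, dim on both unstimulated arrays, had 4.27 ± 0.13, an approximate size (limma adjusted p = 4.49e-05, and 0.000552 without the filter). The size for Gbp5 is approximate too, since its unstimulated array with NR4A3 siRNA was dim.

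**Figure D2:**
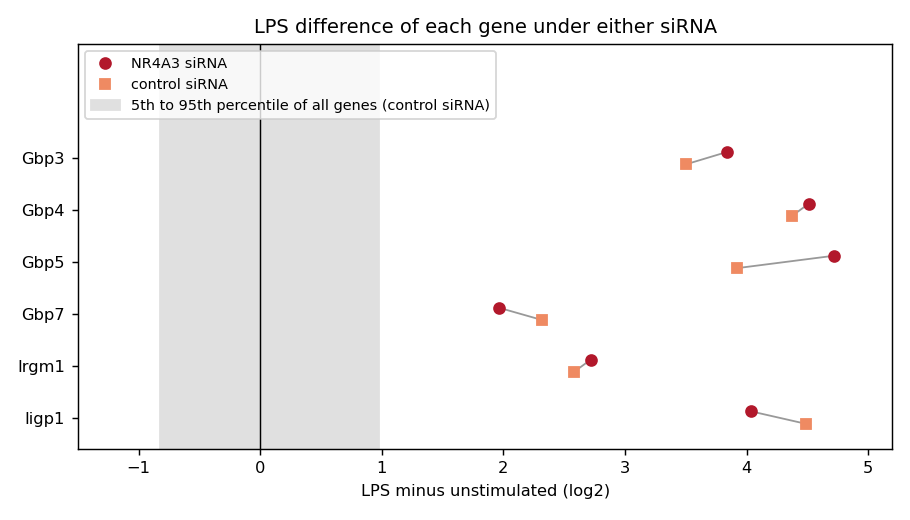
LPS minus unstimulated difference (log2, horizontal axis) of the 6 members, with circles for NR4A3 siRNA and squares for control siRNA, each point being the difference of 2 arrays; the grey band is the 5th to 95th percentile of all genes past the limit with control siRNA, -0.82 to 0.98. All points lie to the right of the band, and the circle is to the right of the square for Gbp3, Gbp4, Gbp5 and Irgm1 and to the left of it for Gbp7 and Iigp1.

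Silencing of NR4A3 addresses whether this receptor contributes to the GTPase levels. In unstimulated cells 1 of 6 members, Gbp5, lay below its control siRNA level by 1.5-fold or more and 0 lay above, against 4.69% of genes lower and 1.62% higher. Iigp1 was dim on both of these arrays, so 5 of the 6 could be counted. The median over the 6 members was -0.24 (log2), with 0.02 over all genes past the limit. Gbp5 was 2.35-fold lower, and 1.1% of 10592 genes had a lower difference. Both values are approximate, because Gbp5 was dim with NR4A3 siRNA (6.35, against 7.58 with control siRNA). In this pair it passed the limit through its control siRNA array alone and so could not be counted as higher. Its count therefore describes Gbp5 without adding support. Gbp3 was next at -0.44, Gbp4 and Irgm1 were at -0.24 each, and Iigp1 and Gbp7 were at 0.11 and 0.20. The 5th to 95th percentile of all genes was -0.56 to 0.40, so that Gbp5 alone among the 6 lay outside it.

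With LPS the siRNAs differed less for 5 of the 6 members, Iigp1 being the exception. None of the 6 was 1.5-fold lower or higher with NR4A3 siRNA, against 4.73% and 3.73% of genes. The 6 differences lay between -0.43 and -0.09 with a median of -0.13, all below zero, where the median over all genes was 0.05. All 6 lay inside the 5th to 95th percentile of all genes, -0.55 to 0.53. The share of all genes below zero was not counted. Gbp5 was again the lowest at -0.43 and Iigp1 followed at -0.34. Gbp7 was at -0.15, Gbp3 and Irgm1 at -0.10 and Gbp4 at -0.09.

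In the additive fit the average effect of NR4A3 siRNA passed an adjusted p of 0.05 for 0 of 6 members, against 3.58% of genes called lower and 1.98% called higher. That split was 379 lower and 210 higher, and 149 lower and 17 higher after cyclic loess scaling. The Gbp5 estimate, an approximate size, was -0.83 ± 0.19 (log2 ± SE, limma adjusted p = 0.0682), and its adjusted p ran from 0.0496 to 0.146 over the alternative settings. For Gbp3 the estimate was -0.27 ± 0.12 (limma adjusted p = 0.228), for Irgm1 -0.17 ± 0.10 (0.337) and for Gbp4 -0.16 ± 0.10 (0.353). Iigp1 was at -0.11 ± 0.13 (limma adjusted p = 0.632) and Gbp7 at 0.03 ± 0.12 (0.922). Missing the threshold does not show that a gene was the same under both siRNAs. The marker lists moved with the siRNA too. Of 9 tested dendritic cell markers 2 fell with silencing, Cd83 by 2.19 and Cd86 by 0.99 (limma adjusted p = 0.011 and 0.0118). Ccr7 and Fscn1 were 11.6-fold and 9.81-fold lower without LPS, and 1.67-fold and 1.58-fold lower with it. Both missed the threshold (limma adjusted p = 0.0949 and 0.0976). At 1.5-fold or more, 4 of 9 dendritic cell markers were lower without LPS and 5 of 9 with it, against 4.69% and 4.73% of genes. None was higher in either state. Of 9 macrophage markers 4 rose, C1qa, C1qb, C1qc and Mrc1, by 0.63 to 1.61. The calls of C1qb and Mrc1 were lost with cyclic loess (adjusted p = 0.0567 and 0.0648) and without a filter (0.0599 and 0.0587), which left 2 of 4. The summed dendritic cell marker level (log2) was 14.73 with NR4A3 siRNA against 15.33 with control siRNA unstimulated, and 15.23 against 15.65 with LPS. That of the macrophage markers was 14.35 against 13.93 unstimulated, and 14.54 against 14.22 with LPS. Their part in the Gbp5 difference was not tested.

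The LPS difference was set against siRNA by the difference of LPS effects, NR4A3 siRNA minus control siRNA, which has 1 value per gene and no test. Gbp5 had the highest value of the members, 0.80, a 1.74-fold larger LPS difference with NR4A3 siRNA, and 98.7% of genes were below it. Gbp5 was lower with NR4A3 siRNA in both states, and by more in unstimulated cells. Gbp3 was at 0.34 and Gbp4 and Irgm1 at 0.14 each. Gbp7, at -0.36, and Iigp1, at -0.45, had smaller LPS differences with NR4A3 siRNA, with 5.49% and 3.51% of genes below them. The values and ranks of Gbp5 and Iigp1 are approximate, because Gbp5 was dim on 1 unstimulated array and Iigp1 on both. The 5th to 95th percentile of all genes was -0.37 to 0.48.

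GBP genes lie side by side in 2 clusters, so the members can be read next to their neighbours. In RefSeq order on chromosome 3 (Gbp5, Gbp7, Gbp3, Gbp2b, Gbp2), the silencing differences in unstimulated cells were -1.23 for Gbp5, 0.20 for Gbp7, -0.44 for Gbp3 and -0.25 for Gbp2b. The joint probe set of Gbp2 and Gbp2b was at -0.08. Gbp5 and its direct neighbour Gbp7 thus had opposite signs in unstimulated cells, where Gbp7 lay inside the 5th to 95th percentile of all genes (-0.56 to 0.40). With LPS both were below zero, Gbp5 at -0.43 and Gbp7 at -0.15. On chromosome 5, in the order Gbp8, Gbp9, Gbp4 and Gbp11, the values were -0.14, 0.17, -0.24 and -0.02. The joint probe set of that cluster was at -0.14. Irgm1 and Gm12250 (Irgb10) on chromosome 11 were at -0.24 and -0.28, and Gm4951 and Iigp1 on chromosome 18 at -0.21 and 0.11. Gbp11 and Iigp1 were dim on both unstimulated arrays and Gbp5 on the one with NR4A3 siRNA, so their values here are approximate.

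**Figure D3:**
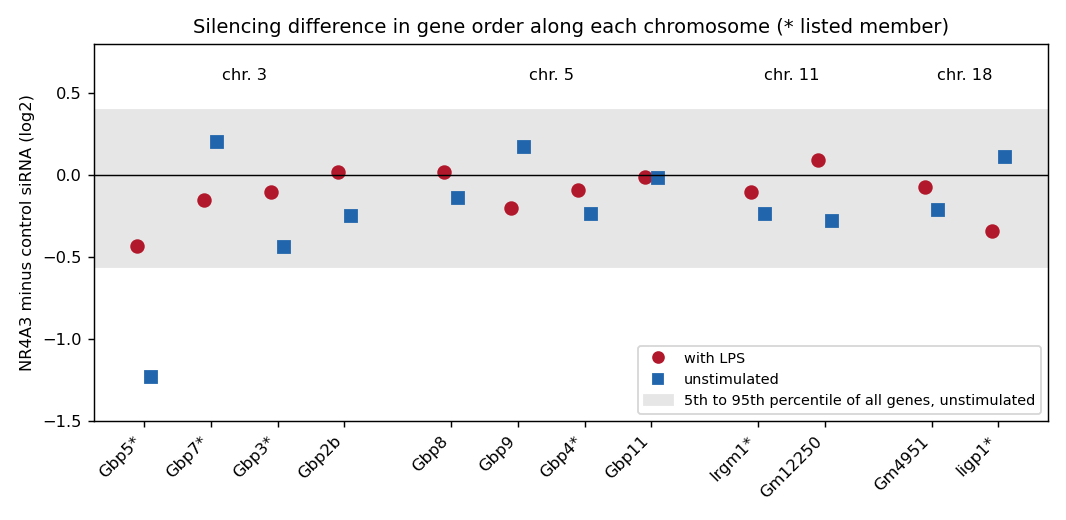
NR4A3 minus control siRNA difference (log2, vertical axis) of GBP and IRG genes with a probe set of their own and a level past the dim-gene limit on some array, in RefSeq gene order within each chromosome, with circles for LPS-treated and squares for unstimulated cells, each point being the difference of 2 arrays; the grey band is the 5th to 95th percentile of all genes in unstimulated cells, -0.56 to 0.40, and stars mark the 6 members. The squares of Gbp11 and Iigp1 come from signals below that limit. The unstimulated Gbp5 point at -1.23 is the one point below the band, and its array with NR4A3 siRNA, at 6.35, was below the limit too.

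Other GTPases of these families rose with LPS as well. Of 8 further GBP and IRG genes on probe sets of their own, 6 passed the limit (Gbp2b, Gbp8, Gbp9, Gbp11, Gm12250, Gm4951) and all 6 were at least 1.5-fold higher with LPS under either siRNA, Gbp11 having passed through its LPS-treated arrays alone. Gbp11, a transcribed pseudogene in RefSeq, was 11.3-fold higher with NR4A3 siRNA and 11.2-fold with control siRNA, values that are approximate because it was dim without LPS. Gbp2b was 8.60-fold and 7.14-fold higher, Gm4951 9.30-fold and 8.48-fold, Gm12250 6.39-fold and 4.95-fold, Gbp9 5.32-fold and 6.87-fold, and Gbp8 4.96-fold and 4.44-fold, in the same order of siRNAs. Gm4841 and the IRG homolog Irgc1 stayed below 6.66 on all 4 arrays. Irgq, an IRG-like gene outside the interferon-inducible group, lay between 6.67 and 6.73 on all arrays. The 2 probe sets shared by Tgtp1 and Tgtp2, T cell-specific GTPases of the IRG family, were 16.4-fold and 16.7-fold higher with NR4A3 siRNA and 21.8-fold and 23.3-fold with control siRNA. They differed by -0.55 and -0.61 between the siRNAs under LPS and by -0.13 each without it. Mx1 and Mx2, genes of dynamin-like GTPases, are transcribed pseudogenes in RefSeq as well. Mx1 was higher with LPS by 3.58 (log2) under NR4A3 siRNA, an approximate value, and by 2.09 under control siRNA. Its unstimulated level was 6.45 with NR4A3 siRNA, below the limit, against 8.54 with control siRNA. Mx2 was 7.95-fold higher with LPS under NR4A3 siRNA and 8.57-fold under control siRNA, both approximate because it was dim without LPS. In the additive fit the average difference between siRNAs was -1.34 for Mx1 and -0.44 for Mx2 (limma adjusted p = 0.0742 and 0.0626).

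Of 13 tested genes of interferon-gamma signalling, 8 rose and 1 fell with LPS in the additive fit, against 15.6% of all genes called higher and 14.4% called lower. The 8 became 5 without a filter and 5 with repeated quantile normalization, where Jak2 (adjusted p = 0.0869 and 0.0654), Nlrc5 (0.0656 and 0.082) and Ptpn2 (0.0522 and 0.0556) missed the threshold. They became 6 with cyclic loess and 7 with the mean of probe sets. Ifng itself stayed below 6.66 on all arrays, between 5.60 and 6.17. The receptor gene Ifngr1 fell by 1.34 (log2, limma adjusted p = 0.000452), whereas the feedback inhibitors Socs3 and Socs1 rose by 2.43 and 2.44 (7.09e-05 and 7.42e-05). The factor gene Irf1, an activator of GBP promoters, rose by 1.12 (0.00114). With the mean of probe sets in place of the brightest, the increases of Irf1 and Socs3 were smaller, 0.69 and 1.59. Jak2, the kinase of the interferon-gamma receptor, stood at 9.31 with NR4A3 siRNA against 11.38 with control siRNA in unstimulated cells, a 4.18-fold lower level. With LPS it was at 11.62 against 11.99, and its average difference between siRNAs did not pass the test (-1.22 ± 0.37, limma adjusted p = 0.111). Irf8, an interferon-responsive factor of myeloid cells, was 2.01-fold lower with NR4A3 siRNA without LPS and 2.29-fold lower with it, and fell on average by 1.1 (limma adjusted p = 0.0107). It was the 1 gene of the 13 called lower with silencing, and 0 were called higher, against 3.58% and 1.98% of all genes.

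Type I interferon signalling had 7 of 10 tested genes that rose with LPS and 0 that fell, against 15.6% and 14.4% of all genes. Irf7, Usp18 and Stat2 had the largest increases of this list, 2.55, 2.24 and 2.09 (log2). The transcripts of the cytokines, Ifnb1 and Ifna4, lay between 4.97 and 5.43 on all arrays, below the limit, at the 24 hours sampled. The receptor-associated kinase gene Tyk2 fell with silencing, by 0.62 (limma adjusted p = 0.0321), and was the 1 gene of 10 that passed, against 3.58% of all genes called lower. Its call was lost with cyclic loess and without a filter (adjusted p = 0.0535 and 0.0643).

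Genes that act with the GTPases were counted by role, and each count stands against 15.6% of all genes called higher and 14.4% called lower with LPS, and 1.98% higher and 3.58% lower with silencing. Of 10 inflammasome and cell death genes, 9 rose with LPS, among them Il1b by 2.25 and Casp4, the cytosolic LPS sensor that GBPs assist, by 2.08, while the adaptor gene Pycard fell by 0.40. Il18, also among the 9, passed the limit through its LPS-treated arrays alone and so had to be higher. Casp4 was 1.52-fold lower with NR4A3 siRNA without LPS and 1.65-fold lower with it, and fell on average by 0.66 (limma adjusted p = 0.0273). Pycard rose with silencing by 0.51 (limma adjusted p = 0.0472). Both calls were lost with cyclic loess (adjusted p = 0.0563 for Casp4 and 0.0875 for Pycard) and without a filter (0.0544 and 0.0788), and that of Pycard also with repeated quantile normalization (0.0575). Gsdmd, at -0.45 on average, missed the threshold (limma adjusted p = 0.0562). It was called lower with the filter at the 75th percentile (0.0478) and with the mean of probe sets (0.0455). The count called lower, 1, was 2 under these settings, with median centring and with a variance trend. Of 12 tested genes of autophagy, whose conjugation machinery GBPs and IRGs need to reach vacuoles, 2 rose with LPS (Sqstm1, Tax1bp1) and 1 fell (Atg7, by 0.80), so that the share called higher was near that of all genes. None of the 12 passed the test with silencing. Of 6 enzymes of prenylation, the lipid anchor that some GBPs carry, 0 passed the test with LPS or with silencing. All 4 tested ubiquitin-related partners rose with LPS, led by Trim21 by 2.46 and Rnf213 by 2.09, and Traf6 fell with silencing by 0.67 (limma adjusted p = 0.026). That call too was lost with cyclic loess and without a filter (adjusted p = 0.0503 and 0.0533).

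**Figure D4:**
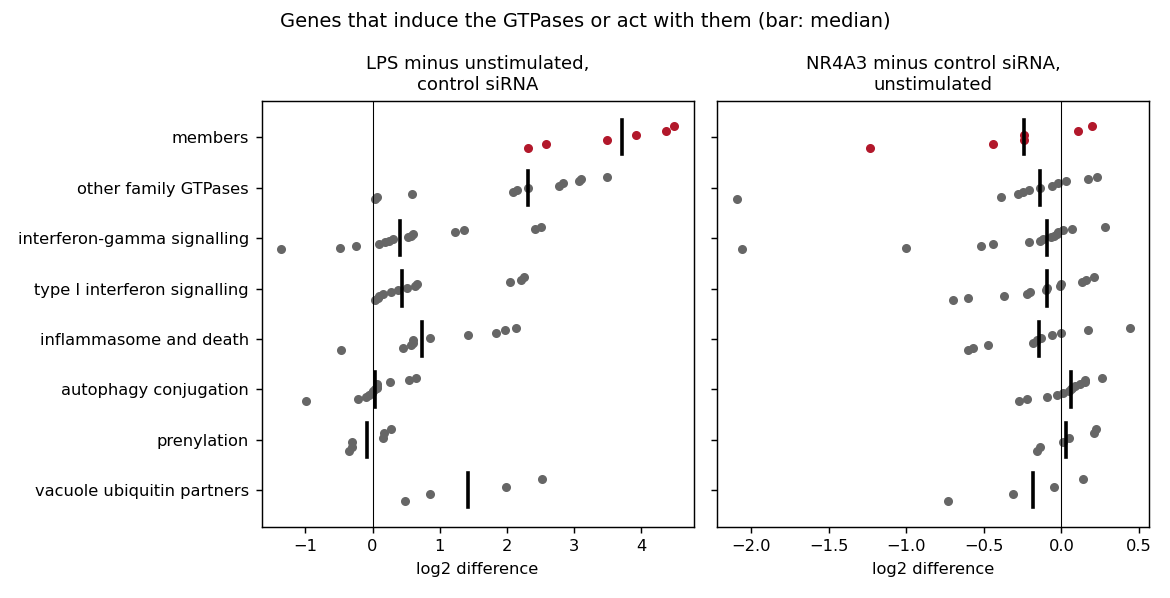
Log2 difference (horizontal axes) of every measured gene of 8 lists (members, other family GTPases, interferon-gamma and type I interferon signalling, inflammasome and death, autophagy, prenylation, ubiquitin partners), without cell type markers and Nr4a3, 1 point per gene and a bar at the list's median, for LPS minus unstimulated with control siRNA (left) and NR4A3 minus control siRNA in unstimulated cells (right). On the left the members' median of 3.71 is above those of the other lists, and on the right the points below -2.0 are Mx1 at -2.09 and Jak2 at -2.06.

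The genes closest to the members in profile were found by the root mean square distance over the 4 arrays between centred log2 values and the members' mean profile. That profile was 1.69 with NR4A3 siRNA and 1.89 with control siRNA under LPS, against -1.94 and -1.64 unstimulated. The members themselves lay 0.074 (Gbp3) to 0.741 (Gbp7) from it. Among 10586 other genes past the limit the 8 nearest were Oasl1 (0.053), Phf11d (0.091), Ccr4 (0.091), Gbp11 (0.131), Ms4a6c (0.131), Slfn1 (0.134), Ifi214 (0.137) and Inhba (0.170). Of these, 1 belongs to the GBP and IRG families. The distance describes 4 arrays and carries no test.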

How the data were processed

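Total RNA of the 4 samples was hybridised to Affymetrix arrays. Per the labels, the deposited log2 values came from RMA, a summary of each probe set, after quantile normalization, which would hide a shift of most genes. Expression Console 1.1 of Affymetrix is listed in the submitters' processing notes. Build and filters were not given in the sources used here. Values ran from 4.21 to 14.27, and array medians from 6.37 to 6.42.

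GEO's platform annotation gave the names: of 28856 probe sets, 21789 had 1 symbol, 1621 several and 5446 none here. For 999 of the 19938 genes, the brightest of several probe sets (highest mean) stood for the gene. Differences between 2 arrays have no test. A gene was counted at 1.5-fold or more when its brighter array reached 6.66, the median of all genes. The additive fit of siRNA and LPS used limma 3.58.1 (lmFit, eBayes) in R 4.3.3 over 10592 genes, with a prior of 4.76 degrees of freedom and a prior SD of 0.106. The code was tested on simulated data.

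The members, the lists and the tests were chosen with earlier results of these data known. Every member is named. Of the other lists, the family GTPases, a set of central interferon genes and up to 5 genes per list with the largest differences are named, and the 8 nearest profiles. Alternatives were median centring, repeated quantile normalization, cyclic loess, the mean of probe sets, 2-fold and 3-fold thresholds, a filter at the 75th percentile (8.67) or none, a variance trend, and leaving out the farthest member. Adding the shared probe sets was chosen after seeing the data.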

Additional observations from a re-analysis of the deposited data

Results flagged for a closer look

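For 5 of 21 named genes the difference between NR4A3 and control siRNA had opposite signs without and with LPS, by at least 0.1 (log2) in both states. Each is a difference of 2 arrays, and the contrast between the states was not tested. The share of all genes that meet this rule was not counted, so 5 of 21 has no background to stand against. Over all genes past the limit, the median size of a silencing difference was 0.15 without LPS and 0.18 with it. Gbp7 was at 0.20 without LPS and at -0.15 with it, and Iigp1 at 0.11 and -0.34, the first below the dim-gene limit. Outside the members, Gbp9 was at 0.17 and -0.20, Irgc1 at 0.23 and -0.30, and Ifng at -0.12 and 0.20, where Irgc1 and Ifng lay below that limit on all arrays.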

How the results depend on the processing

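Of 82 recomputed counts and medians over the members, 77 stayed within 1.5 times the count or within the prior SD of 0.106 of the median, and none changed sign. The mean of probe sets moved no member's difference (largest move 0.0), so the 1.5-fold counts and medians under that setting are no check. The count of members lower with NR4A3 siRNA in unstimulated cells, 1, became 0 at 3-fold and 0 with the filter at the 75th percentile. The median LPS difference with control siRNA, 3.71, became 3.92 without Gbp7, the farthest member, and 3.5 with the shared probe sets added. The count of members called for silencing, 0, became 1 with the mean of probe sets, where Gbp5 had an adjusted p of 0.0496, its estimate of -0.83 ± 0.19 being the same in both. Over all genes, the silencing fit called 379 lower and 210 higher, against 149 and 17 with cyclic loess, 261 and 109 with repeated quantile normalization, 132 and 24 without a filter, and 467 and 322 with the mean of probe sets. The largest move of a member's difference under another scaling was 0.12 (Irgm1), and the median of all genes moved by at most 0.06. Among the named lists, the count of interferon-gamma signalling genes that rose with LPS, 8, was 5 without a filter and 5 with repeated quantile normalization. That count was 6 with cyclic loess and 7 with the mean of probe sets. No paired analysis was possible because each condition had 1 array. Signals near the dim-gene limit (Gbp5, Iigp1, Gbp11, Mx1 and Mx2 without LPS) give folds that are approximate.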

Other observations

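Probe sets shared by the very large inducible GTPase gene Gvin1 and its copies were left out of the list counts, which used probe sets of a single gene. The 3 probe sets were 2.22-fold to 2.35-fold higher with LPS under NR4A3 siRNA and 2.76-fold to 3.02-fold under control siRNA. Between the siRNAs they were at -0.43, -0.40 and -0.46 with LPS and at -0.11, -0.04 and -0.12 without it. The probe set shared by the IRG gene Ifi47 and the olfactory receptor gene Olfr56 was 6.13-fold higher with LPS under NR4A3 siRNA and 5.09-fold under control siRNA, and stood at -0.09 between the siRNAs with LPS and at -0.36 without it.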
